A study of Rana omeimontis with 12 samples.

Results

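FR10 and Li16 are proteins first described from freezing wood frogs (Rana sylvatica), and their transcripts were followed here in tadpoles of Rana omeimontis, a frog of the same genus. Unigenes, the transcript units of a de novo assembly, were taken when their protein annotation named FR10, FR47, Li16 or a freeze-responsive protein and when they reached 1 FPKM (fragments per kilobase of transcript, scaled to the mapped fragments of the library, so a level per length) in at least 3 of the 12 libraries. Of 56172 unigenes, 4 carried such an annotation and 3 passed: FR10 (TRINITY_DN121951_c6_g1), Li16 (TRINITY_DN119921_c3_g2) and a second Li16 unigene (TRINITY_DN104249_c0_g2). In lower case their annotations read fr10 and, for both Li16 unigenes, freeze-responsive liver protein li16, and the protein database entry was from Rana sylvatica each time. The genes were chosen by their FPKM level, because FR10 and Li16 are the most abundant liver transcripts in several libraries, so their liver levels and the gap between liver and tail are given as a description without a test. The tadpoles were at Gosner stages 30 to 31 and were kept for 3 days, with food, in water with DMSO (control) or with 10 nM T3, the active thyroid hormone. The paper reports that T3-treated tadpoles ate less and weighed less, so T3 and lower food intake cannot be told apart in these libraries. T3 was given to set off metamorphic climax, when a tadpole resorbs its tail and remodels its organs, and no tadpole was frozen or chilled. RNA of liver and tail was sequenced with 3 libraries for each tissue and treatment. The labels do not say whether each library came from a separate animal, so p-values measure only the spread between these libraries.

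In wood frogs, freezing of the body water starts a response in which the liver breaks down glycogen and releases glucose as a cryoprotectant. FR10 is a small secreted protein, and FR10, Li16 and FR47 were all found as transcripts that increase in the frozen wood frog. Their biochemical role is not settled, and the names were carried over to Rana omeimontis by sequence similarity alone.

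The tissue labels matched the marker transcripts. Transcripts worded as plasma proteins of hepatocytes summed to 27895 to 38718 FPKM in control livers and 55801 to 81178 FPKM in T3 livers, against 182 to 271 FPKM in the tails. The wording also takes in an mRNA editing enzyme and apolipoproteins O and O-like, so the tail sums are not all plasma proteins. Skeletal muscle transcripts, listed without muscle creatine kinase, summed to 28032 to 98902 FPKM in the tails and 210 to 301 FPKM in the livers. The thyroid hormone receptor beta, a direct T3 target, was listed at 0 in every control liver and at 3.15 to 6.39 FPKM in the T3 livers, and at 0.15 to 0.80 FPKM in control tails and 8.88 to 11.37 FPKM in T3 tails. Of 5 T3 response transcripts, 2 were tested in the liver, where this receptor rose and type III deiodinase, which inactivates T3, fell from 23.6 ± 7.28 to 3.76 ± 2.42 FPKM (SD, n = 3, limma adjusted p = 0.0191). In the tail all 5 were tested and 4 rose. Control livers 1 and 2 stood apart: exocrine pancreas transcripts took 8.16% and 10.1% of their summed FPKM, against 0.0405% in control liver 3 and 0.0241% to 0.637% in the T3 livers. Relative depth, read from the most common ratio of low non-zero values to those of control liver 1, lay within 1.35 times across the libraries.

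FR10 was at 22347, 22485 and 28163 FPKM in control livers 1, 2 and 3, and at 29085, 34055 and 29786 FPKM in T3 livers 1, 2 and 3. Every T3 liver lay above every control liver, but control liver 3 came close to T3 liver 1. In the tail FR10 was at 59.64, 55.51 and 19.74 FPKM in the controls and at 363.71, 148.47 and 111.18 FPKM after T3, again with no overlap. The mean level in control liver, 24332 ± 3318 FPKM (SD, n = 3), was 541 times that in control tail, 45.0 ± 21.9 FPKM. After T3 the liver mean was 149 times the tail mean. FR10 was thus far more abundant in liver than in tail under both treatments, yet it was measured in all 6 tails.

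Li16 was at 11922, 11281 and 14878 FPKM in control livers 1, 2 and 3, and at 20902, 34998 and 24047 FPKM in T3 livers 1, 2 and 3. The groups did not overlap, and T3 liver 2 was the highest. In the tail it was at 7.88, 15.69 and 20.83 FPKM in the controls and at 11.96, 11.96 and 10.10 FPKM after T3. All T3 tails lay inside the range of the control tails. The mean in control liver, 12694 ± 1919 FPKM (SD, n = 3), was 858 times the mean in control tail, 14.8 ± 6.52 FPKM, and after T3 the liver mean was 2350 times the tail mean.

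The other Li16 unigene and FR47 were rare. The second Li16 unigene was at 2.68, 0.83 and 7.49 FPKM in control livers and at 0, 11.08 and 1.48 FPKM in T3 livers, and it was listed at 0 in every tail. It reached 1 FPKM in 4 libraries, just inside the minimum. Both Li16 unigenes carry the same annotation, so reads may have been divided between them, but the second was nowhere above 11.08 FPKM. FR47, the unigene that failed the minimum (TRINITY_DN83728_c0_g1), was at 0.49 and 0.82 FPKM in control livers 1 and 2 and at 0.71 FPKM in T3 tail 1. It was listed at 0 in the other libraries and was not tested.

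**Figure D1:**
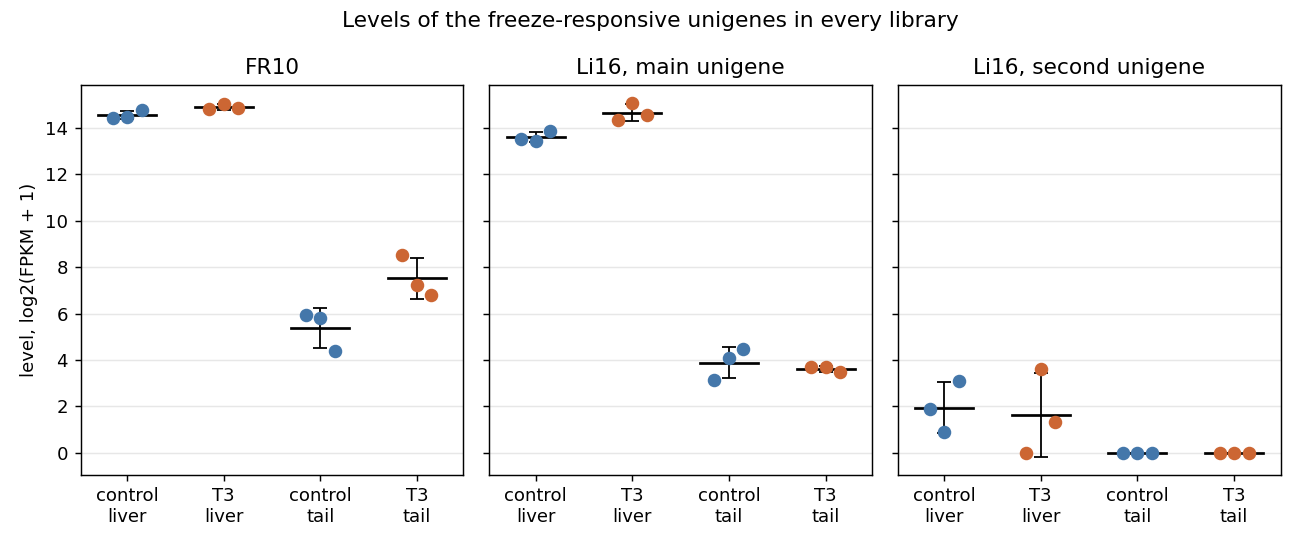
Level of each unigene in every library on a log2(FPKM + 1) axis. Points are libraries (blue control, orange T3), thick lines are group means of 3 libraries and bars are SD. FR10 and Li16 lie far higher in liver than in tail, and FR10 is the one that lies higher in every T3 tail than in every control tail.

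By level FR10 was among the top 3 unigenes of every liver library. It ranked 2, 3 and 1 in control livers and 1, 2 and 1 in T3 livers, while Li16 ranked 6, 6 and 3 and then 4, 1 and 3. The unigenes above or between them included the higher subunit of ferritin, an iron store, in the control livers, trypsins in control livers 1 and 2, and serum albumin in T3 livers 1 and 3. With the exocrine pancreas transcripts left out, Li16 ranked 3 in each control liver. In the tail FR10 ranked between 1238 and 2512 in controls and between 275 and 775 after T3, and Li16 between 2412 and 6865.

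Together the 3 unigenes took 3.33%, 3.28% and 4.50% of the summed FPKM in control livers and 5.08%, 7.16% and 5.58% in T3 livers. The group means were 3.70 ± 0.69% and 5.94 ± 1.08% (SD, n = 3). With the pancreas transcripts taken out of the sum, the control livers were at 3.62%, 3.65% and 4.50%, still below every T3 liver. In the tail the share was 0.00410% to 0.00767% in controls and 0.0146% to 0.0485% after T3.

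The balance between the pair also differed between treatments. FR10 was 1.87, 1.99 and 1.89 times as high as Li16 in the control livers, but 1.39, 0.973 and 1.24 times as high in the T3 livers. This ratio is taken within a library, so it does not move when the whole library is scaled by 1 factor. Quantile normalization is not such a scaling. In control tails it was 7.57, 3.54 and 0.948, and in T3 tails 30.4, 12.4 and 11.0. Li16 thus approached FR10 in the liver after T3, while the distance between them widened in the tail.

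**Figure D2:**
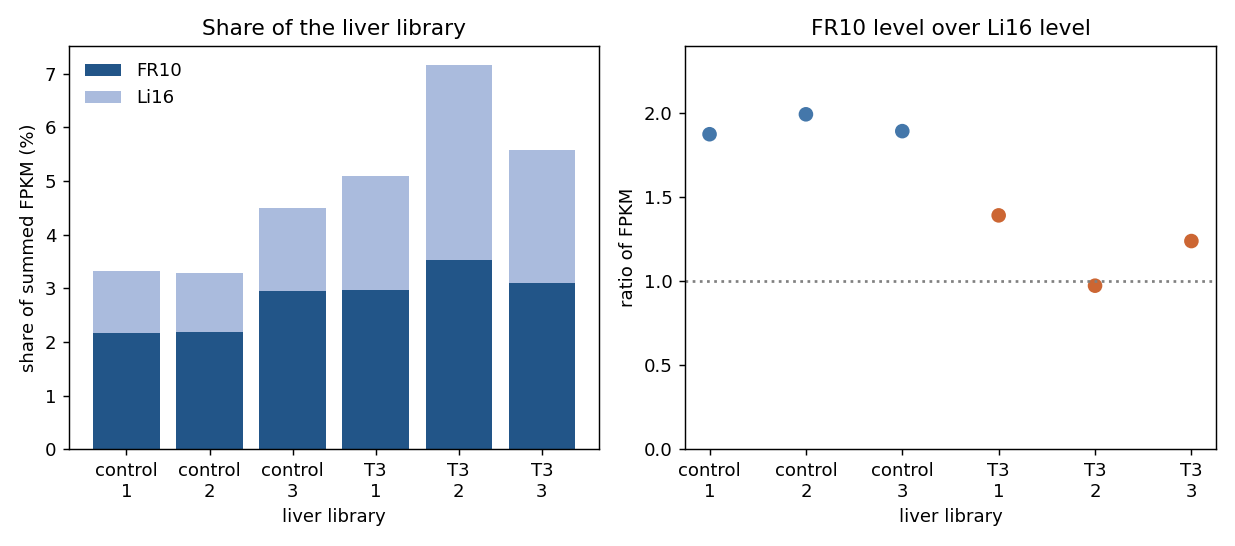
Left, share of the summed FPKM of each liver library taken by FR10 and Li16 (stacked bars, %). Right, FR10 level over Li16 level in the same libraries (blue control, orange T3, dotted line at equal levels). The share is 3.28% to 4.50% in controls and 5.08% to 7.16% after T3, and the ratio is 1.87 to 1.99 and 0.973 to 1.39.

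Li16 rose in the liver after T3, and FR10 did not pass the test there. Both were chosen for their level in liver libraries, so these liver p-values draw on values used in the choice. They are given as a description. T3 and control libraries were compared with limma on log2(FPKM + 1) over 18923 liver unigenes, with Benjamini-Hochberg adjustment over all of them. The mean of Li16 went from 12694 ± 1919 to 26649 ± 7400 FPKM (SD, n = 3), which is 2.10-fold, and its log2 fold change was 1.05 ± 0.21 (SE, 95% confidence interval 0.55 to 1.54, limma adjusted p = 0.0230). That of FR10 went from 24332 ± 3318 to 30976 ± 2690 FPKM, which is 1.27-fold. Its log2 fold change was 0.35 ± 0.14 (SE, interval 0.02 to 0.69, limma adjusted p = 0.146). The second Li16 unigene had a log2 fold change of -0.31 with an interval from -2.44 to 1.82 (limma adjusted p = 0.852), which covers both directions.

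Of the 3 unigenes 1 was called in the liver, beside 12.5% of all unigenes tested, of which 3.83% were called higher and 8.67% lower after T3. For 2 of the 3 every T3 library lay above every control library, beside 8.61% of all, and for 28.2% of all every T3 library lay below. The median log2 fold change of all liver unigenes was -0.26, so that of Li16 was 1.31 above the median and that of FR10 0.62 above it. Median-ratio scaling moved the median to -0.02 and quantile normalization to -0.03, and the share of higher calls went from 30.7% to 59.7% and 55.0%, respectively. Li16 had a log2 fold change of 1.38 with the median-ratio scaling and 0.48 with quantile normalization (limma adjusted p = 0.266), and the values of FR10 were 0.69 and 0.14. Quantile normalization gives equal ranks the same value in every library. FR10 and Li16 held top ranks in every liver, so this scaling leaves little room for a change and cannot decide theirs.

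Without control liver 1, 2 or 3 the log2 fold change of Li16 was 1.01, 0.97 and 1.17, near its value with all libraries, but the limma adjusted p was 0.0746, 0.0782 and 0.0514. The calls over all liver unigenes fell from 2365 to 767, 690 and 637 in these 3 fits. Without control livers 1 and 2, those with pancreas transcripts, the log2 fold change was 0.81 (limma adjusted p = 0.353, with 1 control library). Pancreas transcripts, 62 unigenes, summed to 388 to 104228 FPKM in control livers and 232 to 6258 FPKM in T3 livers, and of the 18 descriptions tested 0 passed in limma, with 7 lower at an unadjusted p below 0.05. With library sums made equal after leaving these transcripts and the 3 unigenes out, the log2 fold change of Li16 was 1.01 (limma adjusted p = 0.0241). In bulk tissue fewer cells of a type and less RNA per cell cannot be told apart.

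In the tail it was FR10 that rose. Its mean went from 45.0 ± 21.9 to 208 ± 136 FPKM (SD, n = 3), which is 4.62-fold, with a log2 fold change of 2.14 ± 0.49 (SE, interval 1.07 to 3.22, limma adjusted p = 0.00976 over 18429 unigenes). Of the tested unigenes 2.62% had a higher log2 fold change. That of Li16 was -0.27 ± 0.33 (SE, interval -0.99 to 0.46, limma adjusted p = 0.580), from 14.8 ± 6.52 to 11.3 ± 1.07 FPKM. Of the 2 members tested in the tail 1 was called, beside 25.4% of all unigenes, with 19.2% higher and 6.23% lower after T3. Every T3 tail lay above every control tail for FR10, as for 32.9% of all unigenes, and the order was the reverse for 10.9%.

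FR10 held its call without any single tail library, with a log2 fold change of 1.64 to 2.49 and a limma adjusted p of 0.00501 to 0.0342, but not when its variance was estimated from its own libraries alone, with no moderation by limma (adjusted p = 0.131). The median log2 fold change of all tail unigenes was 0.31, and that of FR10 was 1.83 above it. Median-ratio scaling moved the median to 0.01 and the share of higher calls from 75.5% to 50.1%, quantile normalization gave 50.6% and equal library sums 85.4%. FR10 was at 1.75, 1.97 and 2.37 under these 3 scalings and kept its call. Without control tail 3 the log2 fold change of Li16 was 0.02 (limma adjusted p = 0.976), so the sign of its change in the tail rests on that library.

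The T3 effects of the 2 tissues were then compared in 1 model over the 12 libraries, which uses the same libraries as the comparisons above. The p-values of this model also draw on the liver levels used to choose the genes. For Li16 the liver effect exceeded the tail effect by 1.31 on the log2 scale (SE 0.41, interval 0.43 to 2.19, limma adjusted p = 0.0427). For FR10 the liver effect minus the tail effect was -1.79 (SE 0.60, interval -3.08 to -0.50, limma adjusted p = 0.0546), which misses the threshold. Of all 24085 unigenes 17.8% were called, 3.48% with the higher effect in liver and 14.3% with the lower. Both adjusted p-values lie next to 0.05 and change sides: that of Li16 was 0.00441 to 0.0931 with 1 library left out, past 0.05 in 10 of 12 cases, and 0.242 without control livers 1 and 2. That of FR10 was 0.0338 to 0.112 with 1 library left out. With median-ratio scaling the difference was 2.10 for Li16 (limma adjusted p = 0.0311) and -0.98 for FR10 (limma adjusted p = 0.326).

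**Figure D3:**
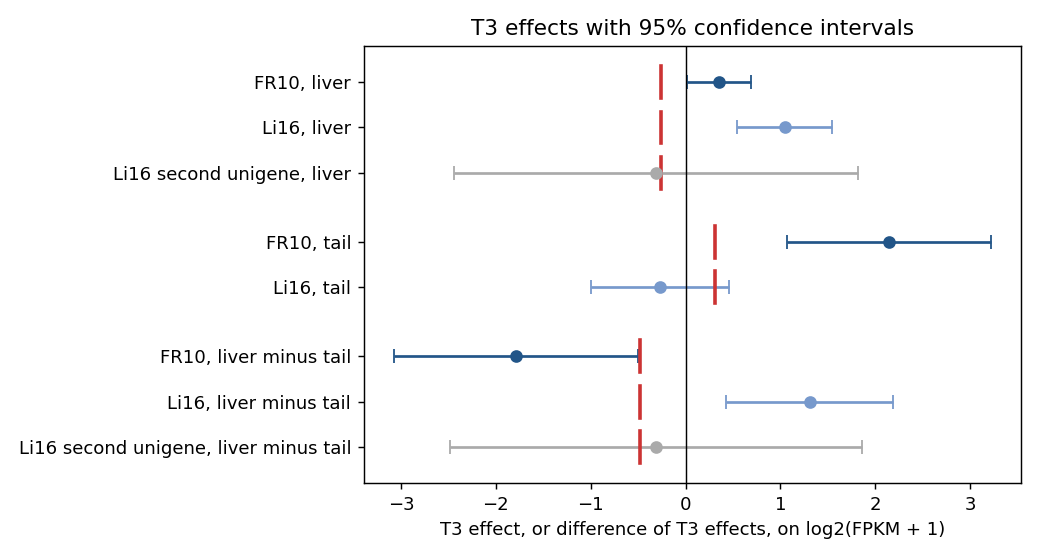
Log2 fold change after T3 in liver and tail, and the difference of these effects (liver minus tail), with 95% confidence intervals from limma. Red marks are the median of all unigenes tested. Li16 lies at 1.05 in liver and -0.27 in tail, and FR10 at 0.35 in liver and 2.14 in tail.

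Because FR10 and Li16 are abundant in the liver, their tail levels were set beside those of other liver transcripts. Transcripts of plasma proteins (albumin, fibrinogens, apolipoproteins, complement C3 and others) with a mean of at least 100 FPKM in the liver gave 37 unigenes, several of them pieces of 1 gene. This set was chosen after the values were seen. Their sum in the tail was 55.5, 76.9 and 85.6 FPKM in controls and 80.4, 99.0 and 61.2 FPKM after T3, so the groups overlapped. Of the 19 tested in the tail, 2 rose, a transferrin (an iron carrier) and a coagulation factor 7, and 0 fell by limma, with 1 lower at an unadjusted p below 0.05. Over all tail unigenes 19.2% were called higher. The rest of the 37 were too low in the tail to be tested. Adding 1 to low FPKM values also shrinks their log2 fold changes more than that of FR10. The transferrin, for example, had means of 0.67 and 2.32 FPKM and a log2 fold change of 0.97.

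In control tails the 37 unigenes stood at 0.0244% to 0.393% of their liver level, with a median of 0.0912%. FR10 stood at 0.185% and Li16 at 0.117%, both inside that range. After T3 the median was 0.0651% and the highest value 0.954%. FR10 then stood at 0.671% and Li16 at 0.0426%, again inside the range. The set does not hold every liver plasma protein: complement factor B and alpha-2-antiplasmin stood at 1.23% and 2.69% after T3, above its highest value. Both were picked for their likeness to FR10 over the 12 libraries. Their tail shares are therefore not independent of that choice and are given as a description. In control tails FR10 and Li16 stood above all 37, whose highest mean was 9.45 FPKM, of the serum albumin unigene TRINITY_DN114876_c5_g3. FR10 also had a higher liver mean than any of the 37 under both treatments. After T3 none of the 37 had a tail level above that of FR10. The nearest was a hemopexin-like unigene (a heme carrier), with means of 8.22 FPKM in control tails and 18.1 FPKM in T3 tails (log2 fold change 1.05, limma adjusted p = 0.0911). The serum albumin unigene TRINITY_DN112493_c3_g3 went the other way, from 7.90 to 4.85 FPKM in the tail (limma adjusted p = 0.243), while its liver mean went from 2281 to 21231 FPKM.

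**Figure D4:**
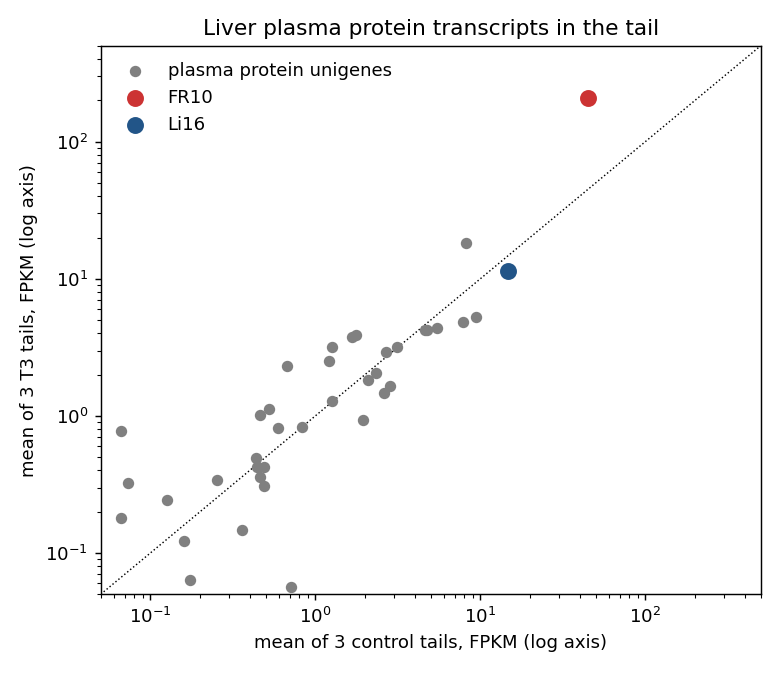
Mean FPKM in 3 T3 tails against mean FPKM in 3 control tails, both on log axes, for 37 plasma protein unigenes (grey), FR10 (red) and Li16 (blue). The dotted line marks equal levels. FR10 lies at 45.0 and 208 FPKM, above the grey points, and Li16 at 14.8 and 11.3 FPKM, near the line.

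Marker transcripts of other cell types in the tail also differed between treatments, which does not measure the number of cells. Skeletal muscle transcripts summed to 44986 to 98902 FPKM in control tails and 28032 to 40713 FPKM in T3 tails, and 14 of the 34 tested fell while 2 rose. The muscle list leaves out muscle creatine kinase. Its unigene TRINITY_DN112156_c3_g2 was at 19462 to 36459 FPKM in control tails and 9558 to 16099 FPKM in T3 tails. Epidermis transcripts summed to 9615 to 19979 and 4710 to 7892 FPKM, with 12 of 41 higher and 15 lower by the test. Erythrocyte transcripts summed to 1057 to 3698 and 2869 to 4726 FPKM, and 5 of the 9 tested rose while 1 fell, with a median log2 fold change of 1.88 beside 0.31 for all unigenes. Hemoglobin subunit alpha-C, an oxygen carrier of red blood cells, rose from 2.08 ± 1.15 to 186 ± 156 FPKM (SD, n = 3, log2 fold change 5.65, limma adjusted p = 5.4e-05) and was picked out after its values were seen. It also rose in the liver, from 0.29 ± 0.07 to 1592 ± 719 FPKM (limma adjusted p = 3.0e-05). Erythrocyte transcripts there summed to 5577 to 10747.5 FPKM in controls and 3793 to 6283 FPKM after T3. The erythrocyte list leaves out a unigene worded larval beta globin, which was at 10263 FPKM in control liver 3. The sums, counts and median given here for erythrocyte transcripts therefore do not cover all globins. Larval hemoglobin alpha-3 (TRINITY_DN120685_c4_g1), the most abundant listed red cell transcript in the tail, went from 2035 ± 1221 to 3282 ± 830 FPKM there (limma adjusted p = 0.155). In the liver this unigene fell from 6370 ± 2578 to 2523 ± 671 FPKM (limma adjusted p = 0.0332). Another unigene worded hemoglobin subunit alpha-3 (TRINITY_DN120685_c3_g2) rose in the tail, from 3.57 ± 2.07 to 95.7 ± 42.9 FPKM (limma adjusted p = 2.6e-05). Over all tail unigenes 19.2% were called higher and 6.23% lower. The part of these changes in the rise of FR10 was not tested.

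Other transcripts known to increase in the liver of freezing wood frogs were followed by annotation wording: the fibrinogen chains of blood clotting, mitochondrial ADP/ATP translocase and phosphate carrier, and ribosomal protein P0. Several unigenes carry different wordings of 1 gene, fibrinogen alpha for example, so the counts below are not of separate genes. Fibrinogens were also among the plasma protein unigenes above. Of 12 tested in the liver, 0 rose and 1 fell by limma (0 higher and 2 lower at an unadjusted p below 0.05), with a median log2 fold change of 0.11, beside -0.26 for all unigenes. The 3 most abundant were fibrinogens alpha, beta and gamma, whose log2 fold changes of 0.27, 0.47 and 0.51 did not pass (limma adjusted p = 0.487, 0.204 and 0.243). In the tail 0 of 13 rose and 2 fell by limma (0 higher and 3 lower at an unadjusted p below 0.05), with a median of -0.11 beside 0.31 for all.

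Genes of glycogen and glucose handling bear on the supply of glucose, the wood frog's cryoprotectant. By wording the list held enzymes of glycogen breakdown and synthesis, glucose-6-phosphatase and glucose transporters. Its counts therefore mix release with storage and transport. Of 17 tested in the liver, 1 rose and 1 fell, with a median log2 fold change of -0.23 beside -0.26 for all. The liver form of glycogen phosphorylase, which breaks down glycogen, was the 1 that rose, from 56.3 ± 4.72 to 154 ± 10.5 FPKM (SD, n = 3, log2 fold change 1.43, limma adjusted p = 0.00302). Phosphoglucomutase 1, which interconverts glucose phosphates, fell from 140 ± 24.9 to 58.6 ± 4.50 FPKM (log2 fold change -1.23, limma adjusted p = 0.0109). Glucose-6-phosphatase, the last step of glucose release, was the most abundant at 1289 ± 250 and 1920 ± 1187 FPKM and did not pass (limma adjusted p = 0.527). In the tail 6 of 22 rose and 3 fell, beside 19.2% and 6.23% of all, with a median of 0.50 beside 0.31. The most abundant there, phosphoglucomutase 1, fell from 505 ± 162 to 219 ± 17.5 FPKM (limma adjusted p = 0.00823). The next, a muscle form-like glycogen phosphorylase, fell from 361 ± 215 to 103 ± 51.3 FPKM (limma adjusted p = 0.0199). All unigenes of the list summed to 889 to 1588 FPKM in control tails and 659 to 721 FPKM in T3 tails.

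Another list was taken by wording alone: cold-inducible RNA-binding, cold shock domain, antifreeze and ice-binding proteins, aquaporins and urea transporters. Of 10 tested in the liver, 1 rose and 2 fell, with a median of -0.60 beside -0.26 for all. Cold-inducible RNA-binding protein, which binds mRNA in the cold, was at 592 ± 101 and 639 ± 185 FPKM (limma adjusted p = 0.842). Aquaporin-9, a channel for water and glycerol, fell from 75.0 ± 11.8 to 41.1 ± 8.83 FPKM (log2 fold change -0.86, limma adjusted p = 0.0473). Cold shock domain-containing protein E1 was at 22.0 ± 0.44 and 19.6 ± 4.01 FPKM (limma adjusted p = 0.609). In the tail 5 of 9 rose and 1 fell, beside 19.2% and 6.23% of all, with a median of 1.19 beside 0.31. The 1 that fell, cold shock domain protein A, was the most abundant of the list in control tails. It went from 1576 ± 74.9 to 696 ± 68.2 FPKM (limma adjusted p = 0.00186). All unigenes of the list summed to 2429 to 3142 FPKM in control tails and 2287 to 2675 FPKM in T3 tails, so these sums overlapped.

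Among transcripts listed by wording as secreted products of hepatocytes, 5 of 30 rose and 7 fell in the liver, beside 3.83% and 8.67% of all. Their median log2 fold change was -0.44 beside -0.26. The wording also takes in transcripts that are not plasma proteins, named below for the tail, and the liver counts may include them. This list keeps 1 unigene for each description and holds no fibrinogen, and its 3 most abundant were 2 serum albumin unigenes and apolipoprotein A-I. Albumin, the main plasma carrier, rose in both of these unigenes (log2 fold changes 3.28 and 3.01, limma adjusted p = 0.00148 and 0.00247). The listed unigene of apolipoprotein A-I, the protein of high-density lipoprotein, was TRINITY_DN97840_c5_g3. It fell from 9594 ± 2181 to 1998 ± 206 FPKM (log2 fold change -2.24, limma adjusted p = 9.1e-04). Other apolipoprotein A-I unigenes went the other way. TRINITY_DN98129_c1_g1 rose from 265 to 763 FPKM (log2 fold change 1.52, limma adjusted p = 0.00540). TRINITY_DN115013_c9_g7 went from 938 to 1802 FPKM and did not pass (limma adjusted p = 0.300). Of the hepatocyte list 18 were tested in the tail, where 4 rose and 2 fell, with a median of -0.23 beside 0.31. The 3 most abundant there were not plasma proteins but an mRNA editing enzyme and apolipoproteins O and O-like of mitochondria. The 2 that fell were among these. The editing enzyme went from 66.3 to 35.9 FPKM (limma adjusted p = 0.0359) and apolipoprotein O-like from 37.1 to 16.5 FPKM (limma adjusted p = 0.00607). No plasma protein of the list was thus called lower in the tail.

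The unigenes most like FR10 and Li16 were sought by Pearson r of log2(FPKM + 1) among 4121 described unigenes with a liver mean of at least 10 FPKM. The points share libraries and depth, and over 12 libraries r mostly carries the gap between liver and tail, so it is a description. FR10 and Li16 had r = 0.968 with each other over 12 libraries and 0.948 over the 6 livers. For FR10, 197 unigenes had a higher r than Li16 over 12 libraries and 7 over the livers.

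For FR10 the 5 highest over 12 libraries were complement factor B of the alternative complement pathway (r = 0.994), a cytochrome P450 of family 2C (0.991), alpha-2-antiplasmin (0.991), LOC733308 protein (0.991) and a P2Y purinoceptor 2-like unigene (0.989). Since they were chosen for likeness to FR10 over these libraries, their levels are given without a test. Complement factor B had a mean of 17.7 FPKM in control tails and 39.6 FPKM in T3 tails. Alpha-2-antiplasmin, the inhibitor of the clot-dissolving enzyme plasmin, had means of 1.20 and 7.83 FPKM there. Over the 6 livers the 5 were annexin A13 (0.966), LOC100037110 protein (0.965), Ras-association domain family 7 (0.964), mitochondrial ribosomal protein L17 (0.962) and ubiquitin carboxyl-terminal esterase L3 (0.962).

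For Li16 the 5 highest over 12 libraries were monomeric alpha-macroglobulin, a protease inhibitor (r = 0.999), the complement C8 beta chain (0.999), LOC100158443 protein (0.998), a plasminogen-like unigene (0.998) and a pentraxin precursor (0.998). LOC100158443 protein had means of 1202 FPKM in control livers and 2706 FPKM in T3 livers, and the plasminogen-like unigene 535 and 895 FPKM. Over the 6 livers they were FAM214A (0.986), the mitochondrial subunit ND1 (0.983), lipoprotein lipase (0.983), inosine-5'-monophosphate dehydrogenase 2 (0.982) and mitochondrial ATPase subunit 6 (0.981). Lipoprotein lipase, which releases fatty acids from plasma lipids, had means of 1.23 FPKM in control livers and 22.7 FPKM in T3 livers. The 2 lists for each gene shared no unigene.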

How the data were processed

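The authors assembled the reads of all libraries with Trinity, annotated the unigenes against the NR protein database and estimated the deposited FPKM values with Bowtie and RSEM. Tool versions are not stated in the sources used here. Values were used as deposited, and all 12 columns were matched to samples by their labels. Read counts and unigene sequences were not used here. Unigenes with at least 1 FPKM in at least 3 of a tissue's 6 libraries (3 of 12 for the difference between tissues) were tested on log2(FPKM + 1), which understates the change of low unigenes, with limma 3.58.1 in R 4.3.3 with a variance trend and Benjamini-Hochberg adjustment over all unigenes tested. A unigene was called at adjusted p below 0.05. Functions were tested on simulated data. Members, gene lists and tests were chosen with earlier results of these data known. Lists hold 1 unigene for each description. Named genes are all members, the 3 most abundant liver unigenes of 4 lists, the 5 nearest by correlation, and thyroid hormone receptor beta. Transferrin, coagulation factor 7, hemopexin, hemoglobins alpha-3 and alpha-C and type III deiodinase were added after their values were seen. So were larval beta globin, muscle creatine kinase, the further apolipoprotein A-I unigenes and the serum albumin unigene TRINITY_DN114876_c5_g3. The muscle form-like glycogen phosphorylase and cold shock domain protein A, named for the tail, were also added after their values were seen. Alternatives changed pseudocount, filter, scaling, variance, replicate block and each library. Tables and figures were made with Python 3.11.15, pandas 2.3.3 and matplotlib 3.10.9.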

Additional observations from a re-analysis of the deposited data

Results flagged for a closer look

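For Li16 the T3 effect in the liver minus that in the tail was 1.31 on the log2 scale. It passed the threshold in a test of the difference itself (limma adjusted p = 0.0427). The test draws on the liver levels used to choose Li16, so its p-value is given as a description. The call was also not stable. With single libraries left out it was lost in 10 of 12 fits (limma adjusted p = 0.00441 to 0.0931). It was also lost in 9 of 14 alternatives of the processing. The libraries behind the difference were at 11281 to 14878 FPKM in control livers, 20902 to 34998 FPKM in T3 livers, 7.88 to 20.83 FPKM in control tails and 10.10 to 11.96 FPKM in T3 tails.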

How the results depend on the processing

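FR10 stayed uncalled in the liver and Li16 in the tail under all alternatives run. Li16 lost its liver call without a filter (1.05, limma adjusted p = 0.0692), with quantile normalization (0.48), with the variance of each unigene alone (1.05, limma adjusted p = 0.102) and without control livers 1 and 2 (0.81). FR10 lost its tail call with the variance of each unigene alone (2.14). For the difference, FR10 passed with a filter at 5 FPKM (-1.79, limma adjusted p = 0.0394), with equal library sums (-1.97) and with equal sums without members and pancreas transcripts (-2.06). Li16 no longer passed there with pseudocount 0.1 (1.32), without a filter (1.31), with equal sums (1.14), equal sums without members and pancreas transcripts (1.05), quantile normalization (1.08), no variance trend (1.31), the variance of each unigene alone (1.31) and without control livers 1 and 2 (1.07). Median-ratio scaling gave -0.98 for FR10 and 2.10 for Li16 with no change of call. Quantile normalization ties a level to its rank, so it cannot decide the liver changes of unigenes at the top of every liver library. The causes were not tested.

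With 1 library left out, the log2 fold change in the liver was 0.28 to 0.46 for FR10, 0.83 to 1.20 for Li16 and -1.29 to 0.51 for the second Li16 unigene, which turned to 0.26 without control liver 3 and 0.51 without T3 liver 1, in the liver and in the difference alike. In the tail it was 1.64 to 2.49 for FR10 and -0.63 to 0.016 for Li16, which turned to 0.016 without control tail 3. The difference was -2.14 to -1.29 for FR10 and 1.03 to 1.68 for Li16. The number of unigenes called in the liver was 637 to 1687 beside 2365, for the tail 2231 to 5833 beside 4688, and 2149 to 5591 beside 4279 for the difference. Without a filter it was 1069, 2750 and 2722, with the variance of each unigene alone 900 for liver and 1776 for tail, and without control livers 1 and 2 it was 127 for liver and 1168 for the difference. For the difference 19.6% of the calls were higher in liver, against 59.4% with median-ratio scaling and 50.5% with quantile normalization.

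Libraries with the same number correlated in their deviations at 0.238, 0.0723 and 0.149 in the liver and 0.0483, 0.0320 and 0.0728 in the tail, and liver and tail libraries of the same number at 0.0883, 0.166 and 0.0678 in controls and 0.0697, -0.0729 and 0.166 after T3, so the numbers were not taken to pair them. With the replicate block, which joins control and T3 libraries of 1 tissue by number, 2177, 4796 and 3953 unigenes were called in liver, tail and difference, and the difference was -1.79 for FR10 (limma adjusted p = 0.00813) and 1.31 for Li16 (limma adjusted p = 0.0560). The block changed no other call of the members. A replicate block that joins liver and tail of the same treatment and number, chosen after seeing the data, gave 3100 calls for the difference and limma adjusted p = 0.0549 for FR10 and 0.0318 for Li16. The unigenes tested in either tissue, an alternative chosen after seeing the data, gave limma adjusted p = 0.0530 for FR10 and 0.0410 for Li16 in the difference.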
